A study of Arabidopsis thaliana with 21 samples.

Results

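H89C4-7 and H89C11-7 are transgenic Arabidopsis thaliana lines that carry the same altered gene, AtNEET-H89C, and hold different amounts of its transcript. The comparison was made on the libraries carrying these names, 3 of H89C4-7 and 3 of H89C11-7, which are 6 of the 21 libraries of the study. The remaining libraries, 3 per group, come from 1 further H89C line, 3 lines named NEET and the wild type Col. All were prepared from complete seedlings aged 7 days that had grown in liquid half-strength medium (0.5x MS) and were frozen with no further treatment named. The series title describes the H89C protein as dominant-negative and names iron-sulfur metabolism and iron homeostasis as its subject. The labels name no deletion of the endogenous AtNEET gene, and reads of that gene and of the transgene fall under the same entry of the table. The sources used here give neither the promoter nor the insertion sites. Each name stands for a single transgenic line, so the level of the transgene and any other difference between these lines cannot be told apart.

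NEET proteins are small proteins that hold an iron-sulfur cluster, bound by cysteines and a histidine, and can pass the cluster or its iron to other proteins. AtNEET is the Arabidopsis member and is found in chloroplasts and mitochondria. Replacing the histidine ligand with cysteine, the change named H89C, makes the cluster more stable in NEET proteins and harder to hand on.

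AtNEET (AT5G51720) lies at chr5:21009347-21010345 on the plus strand of TAIR10.1 and encodes 108 residues in 2 coding exons. The stretch around the codon that H89C changes is shown because the lines compared differ in how much of this altered transcript they hold. Its reference sequence in exon 2, chr5:21010144-21010188 on the plus strand, is given below with the histidine codon CAT of residue 89 (chr5:21010165-21010167) in capitals.
AtNEET exon 2: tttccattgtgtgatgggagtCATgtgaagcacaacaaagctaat

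AtNEET had 16707, 16521 and 15072 normalized counts in the H89C4-7 libraries, 2361, 2282 and 2499 in the H89C11-7 libraries and 367, 186 and 230.4 in Col. The mean was 6.76 times as high in H89C4-7 as in H89C11-7. The lines were paired for this difference, so it is a description and was not tested. No library of one group reached the range of another. The third H89C line, H89C23-10, averaged 1299 normalized counts, and NEET5-4, one of the lines named NEET, averaged 18191, close to the level of H89C4-7.

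**Figure D1:**
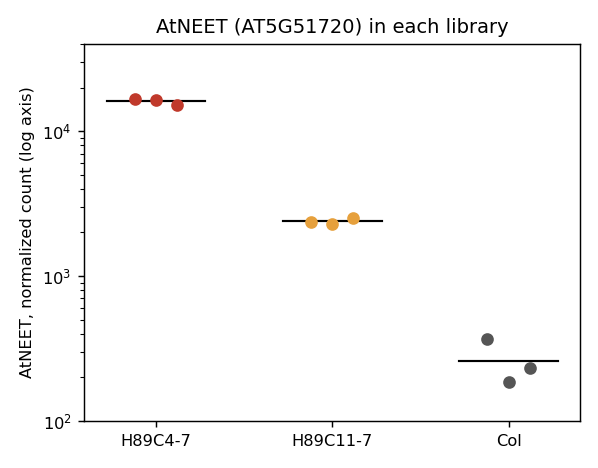
AtNEET normalized count in each library on a log axis, 1 point per library and a line at the mean, for H89C4-7, H89C11-7 and Col. The H89C4-7 libraries lie between 15072 and 16707 and the H89C11-7 libraries between 2282 and 2499.

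Library depth, in units of 1e+06 reads, was 17.88 to 21.16 in H89C4-7, 18.96 to 19.77 in H89C11-7 and 8.24 to 24.68 over the whole study. Normalized counts are the values as deposited, in which a size factor of each library has already been divided out. The median spread between replicates was an SD of 0.087 in H89C4-7 and 0.082 in H89C11-7 on the log2 scale. Replicate 1 of Col stood apart from the other Col libraries and replicate 1 of NEET10-10 from those of its line, with a chi-square per degree of freedom of 8.44 or more against 2.83 or less for every other pair compared. Markers of root hairs, endodermis and green tissue were all present, in keeping with the labelled tissue.

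Out of 20699 genes tested by limma on log2(normalized count + 1), 13174, or 63.6%, differed between the lines at an adjusted p under 0.05. Of these, 6498 (31.4% of the genes tested) were higher and 6676 (32.3%) were lower in H89C4-7. Scaling by library total, an alternative chosen after seeing the data, moved the median of all genes from log2 -0.01 to -0.11 and gave 5125 higher and 8125 lower. Without Col replicate 1 and NEET10-10 replicate 1, likewise chosen after seeing the data, which enter only through the shared estimate of spread, 7017 genes were higher and 7183 lower. Differences of at least 2-fold numbered 1157 higher (5.59%) and 1514 lower (7.31%), and differences of at least 8-fold 63 higher (0.304%) and 76 lower (0.367%). For 70.1% of the genes tested, the 3 libraries of H89C4-7 lay entirely above or below those of H89C11-7, so a count of members without overlap has to be read against that share. Counts of list members called higher or lower are likewise to be read against the 31.4% and 32.3% of all tested genes. Each line was also set against Col in the same fit. H89C4-7 differed from Col in 66.6% of genes, 33.6% higher and 33.0% lower, and H89C11-7 in 37.7%, 19.8% higher and 17.9% lower. Without Col replicate 1 the counts were 6810 higher and 6600 lower in H89C4-7, and 3965 higher and 3599 lower in H89C11-7, and no list median against Col moved by more than log2 0.174. Those 2 comparisons share the Col libraries, and their values are given side by side only to place the difference between the lines. Counts of list members called against Col are to be read against the shares of all genes called against Col. Whether the replicates of a line were grown separately is not stated in the labels, so every p-value here is set against a spread that may be purely technical. In what follows, a log2 value with ± is the fitted difference of H89C4-7 minus H89C11-7 and its SE.

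The 12 largest rises were genes at a low level in H89C11-7 and lower still in Col, and they included oxidoreductases, a sucrose transporter and transcription factors. ELI3-2, a cinnamyl alcohol dehydrogenase family gene that responds to elicitors, had 881, 1333 and 1104 normalized counts in H89C4-7, against 35.8, 22 and 30.5 in H89C11-7 (log2 5.19 ± 0.46 (SE), adjusted p = 3.63e-10). It was nearly silent in Col, with 0, 1.07 and 0 normalized counts. AT1G09500, a Rossmann-fold dehydrogenase gene, had 2763, 3293 and 2706 in H89C4-7 and 142, 176 and 174 in H89C11-7 (log2 4.15 ± 0.22 (SE), adjusted p = 1.27e-14). The transcripts of SUC7, a sucrose-proton symporter gene, numbered 430.2, 459 and 424 in H89C4-7, against 22.1, 29 and 19.3 in H89C11-7 (log2 4.18 ± 0.46 (SE), adjusted p = 1.68e-08), and the gene was listed at 0 in all 3 Col libraries. In all 3 genes, the lowest H89C4-7 library exceeded the highest H89C11-7 library many times over.

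AT1G64795, an uncharacterized gene at chr1:24082579-24082848, had 149.9, 166 and 181 normalized counts in H89C4-7 and 1.05, 1 and 2.03 in H89C11-7, and none of the other 5 groups averaged over 1.68. CYP81G1, a cytochrome P450 gene, had 87, 126 and 79 in H89C4-7 and 0, 0 and 5.09 in H89C11-7. For both genes the H89C11-7 values stand for a handful of reads at most, so their log2 differences of 6.16 ± 0.59 and 5.72 ± 0.72 depend on the added 1. Among regulators, DREB19, a gene of the DREB family of drought and cold response factors, had 256, 285 and 283 in H89C4-7 and 12.6, 14 and 16.3 in H89C11-7 (log2 4.17 ± 0.38 (SE), adjusted p = 6.51e-10). The zinc finger gene AT3G46080 had 381, 481 and 431 in H89C4-7 and 12.6, 22 and 19.3 in H89C11-7 (log2 4.53 ± 0.40 (SE), adjusted p = 2.86e-10). The oxygenase gene AT2G38240 had 173, 267 and 212 in H89C4-7 and 2.11, 14 and 7.12 in H89C11-7 (log2 4.89 ± 0.55 (SE), adjusted p = 2.56e-08). The other 4 were the dehydrogenase gene AT5G16960, the homeodomain-like gene AT5G01380, the polygalacturonase gene AT2G33160 and the uncharacterized gene AT1G21520, with differences from log2 3.92 ± 0.28 to 4.31 ± 0.39. All 12 were called higher than Col in H89C4-7, and 9 of them also in H89C11-7, by smaller differences.

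The 12 largest falls had low or near-background transcript in H89C4-7 and, in most cases, more transcript in H89C11-7 than in Col. HAK5, the high-affinity potassium transporter of roots, had 7.25, 2.02 and 3.34 normalized counts in H89C4-7, against 486, 562 and 557 in H89C11-7 and 403, 401 and 378 in Col (log2 -6.81 ± 0.22 (SE), adjusted p = 8.8e-19 for H89C4-7 minus H89C11-7). This was the largest difference in either direction within the rule for named genes. GSTF14, a phi-class glutathione S-transferase gene, had 8.46, 12.1 and 6.67 in H89C4-7 and 784, 708 and 733 in H89C11-7 (log2 -6.24 ± 0.16 (SE), adjusted p = 2.38e-20). Against Col it differed by log2 -4.90 in H89C4-7 and 1.34 in H89C11-7, both called. PCC1, a gene controlled by pathogens and the circadian clock, had 31.4, 21.2 and 15.6 in H89C4-7 and 481, 638 and 527 in H89C11-7 (log2 -4.58 ± 0.19 (SE), adjusted p = 1.19e-16), with 111, 79.3 and 83.4 in Col. For LURP1, a gene of late upregulation in response to the pathogen Hyaloperonospora, the numbers were 9.67, 20.2 and 4.45 in H89C4-7 and 196, 235 and 219.8 in H89C11-7 (log2 -4.34 ± 0.50 (SE), adjusted p = 3.87e-08), and the Col libraries with 8.05, 8.57 and 12.3 overlapped those of H89C4-7. The peroxidase gene AT3G03670 had 8.46, 9.09 and 2.23 in H89C4-7, against 153, 152 and 153 in H89C11-7 and 42.9, 39.6 and 51.5 in Col (log2 -4.51 ± 0.40 (SE), adjusted p = 3.6e-10). AT2G23270, an uncharacterized gene, had 2.42, 2.02 and 1.11 in H89C4-7 and 71.7, 68.1 and 67.1 in H89C11-7 (log2 -4.65 ± 0.30 (SE), adjusted p = 1.16e-12). The non-coding gene AT2G06995, the cupin gene AT5G38910 and the lectin kinase gene AT2G29250 fell (log2 -4.59 ± 0.43, -4.34 ± 0.27 and -4.28 ± 0.35), and CYP71A13, CYP71A12 and MAM3 are described with their pathways. In none of the 12 did the highest H89C4-7 library reach the lowest H89C11-7 library, which the rule required. Of the 12 genes, 11 were called lower than Col in H89C4-7 and LURP1 was not. Against the same Col libraries, 10 were called higher in H89C11-7, and HAK5 and AT2G06995 were not. For some of the 12, low transcript was not particular to H89C4-7. In NEET11-9 and NEET5-4, AT5G38910 averaged 1.95 and 0, and AT3G03670 1.1 and 0. HAK5 averaged 101 and 70.3 in the same lines, and GSTF14 116 and 176, all above H89C4-7.

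Root markers are given here because HAK5 and several genes below act in roots, and their part in those differences was not tested. Of 11 root hair genes tested 0 rose and 3 fell, no more than the share of all tested genes that fell (32.3%), and with edgeR and with DESeq2 on 19 libraries 1 rose and 1 fell and the median turned from log2 -0.10 to 0.12 and 0.13. Of 19 genes of the Casparian strip and suberin 1 rose and 8 fell, or 1 and 5 with either of those tools. The summed normalized count of the 11 root hair genes was 1241 to 1598 in H89C4-7, 1508 to 2115 in H89C11-7 and 2621 to 3264 in Col, and no member was at 0 in these libraries. The sum over the 21 Casparian strip and suberin genes was 6995 to 7593 in H89C4-7, 8343 to 9291 in H89C11-7 and 10416 to 11731 in Col, with at most 2 members at 0. The root hair sums of the lines overlapped, and the Casparian strip and suberin sums did not. In whole seedlings, fewer cells of a type and less transcript per cell cannot be told apart.

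**Figure D2:**
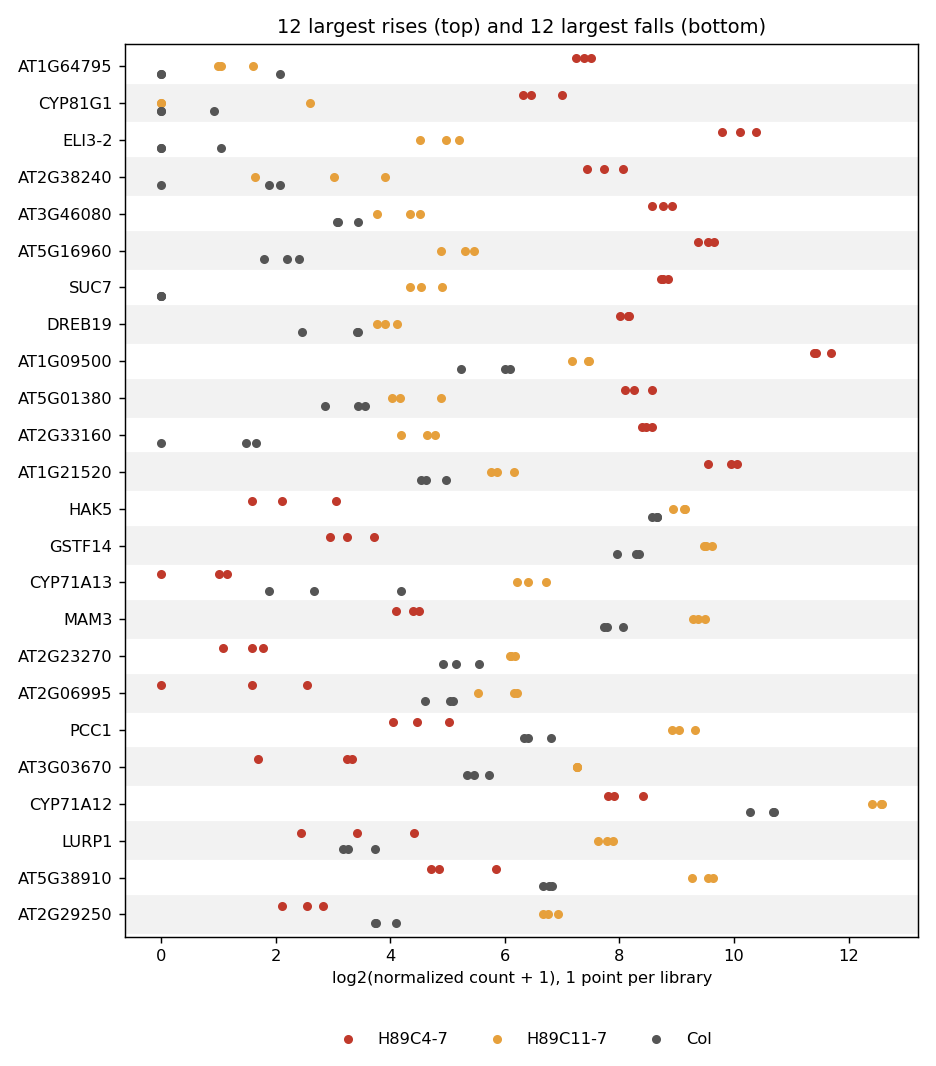
The 12 largest rises and 12 largest falls in H89C4-7 against H89C11-7, as log2(normalized count + 1), 1 point per library, with H89C4-7 drawn above H89C11-7 and Col within each gene. The H89C4-7 points lie right of all H89C11-7 points in the upper 12 genes and left of them in the lower 12, as the rule for choosing them required.

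Camalexin synthesis had the largest median difference of the 37 lists. Camalexin is an indole phytoalexin made from tryptophan through indole-3-acetaldoxime, and the list also holds genes of the related indole carbonyl nitriles. Of 10 members tested, 0 rose and 9 fell in H89C4-7, where 32.3% of all tested genes fell, and the median difference was log2 -2.27 against -0.01 over all tested genes. CYP71A12, which converts indole-3-acetaldoxime to the nitrile, had 338, 223 and 238 normalized counts in H89C4-7, against 5449, 6035 and 6160 in H89C11-7 and 1649, 1240 and 1667 in Col (log2 -4.48 ± 0.13 (SE), adjusted p = 2.3e-19). Its close relative CYP71A13 had 1.21, 1.01 and 0 in H89C4-7, against 72.7, 84.1 and 104 in H89C11-7 (log2 -5.73 ± 0.57 (SE), adjusted p = 2.86e-09), and reads of these near-identical genes may have been split between them. GSTF6, the glutathione S-transferase of the pathway, had 693, 616 and 679 in H89C4-7 and 3147, 3475 and 3377 in H89C11-7 (log2 -2.33 ± 0.13 (SE), adjusted p = 8.06e-14). CYP79B2, which makes indole-3-acetaldoxime and so acts before them, differed by less, with 1048, 936 and 975 in H89C4-7 and 2661, 2616 and 2800 in H89C11-7 (log2 -1.45 ± 0.05 (SE), adjusted p = 6.75e-18). The sole member not called was WRKY33, a regulator of the pathway, with 1894 ± 127 in H89C4-7 and 2144 ± 63.5 in H89C11-7 (SD, n = 3 each; log2 -0.18 ± 0.08 (SE), adjusted p = 0.0656). The list stood on opposite sides of Col in these lines: the median was log2 -1.04 in H89C4-7, with 9 members lower, and 1.13 in H89C11-7, with 8 higher. Over all tested genes 33.0% were lower than Col in H89C4-7 and 19.8% higher in H89C11-7. CYP79B3 fell between the lines (log2 -0.73 ± 0.06) but was lower than Col in both, by log2 -0.91 in H89C4-7 and -0.18 in H89C11-7. Low CYP71A12 and GSTF6 were not particular to H89C4-7. CYP71A12 averaged 6.58 in NEET5-4 and 90 in NEET11-9, where AtNEET averaged 332, against 1666 in H89C23-10 and 2108 in NEET10-10. GSTF6 averaged 59.6, 172, 1351 and 1931 in the same order. CYP79B2 averaged 1441 to 2357 in these groups, above H89C4-7.

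Salicylic acid is a defence hormone made from chorismate, and its response genes were mostly lower in H89C4-7. Of 28 genes tested, 20 fell and 4 rose in H89C4-7 (median log2 -0.71), against 32.3% and 31.4% of all tested genes. FMO1, which makes N-hydroxypipecolic acid, the mobile signal of systemic resistance, had 12.1, 20.2 and 8.9 normalized counts in H89C4-7, against 272, 254 and 285 in H89C11-7 and 129.6, 107 and 110.3 in Col (log2 -4.27 ± 0.25 (SE), adjusted p = 1.29e-13). WRKY70, a transcription factor downstream of salicylic acid, had 162, 150.4 and 148 in H89C4-7 and 693, 834 and 789 in H89C11-7 (log2 -2.32 ± 0.10 (SE), adjusted p = 1.26e-16). CBP60G, which switches on the synthesis gene ICS1, had 539, 546 and 483 in H89C4-7 and 1887, 1946 and 1999 in H89C11-7 (log2 -1.89 ± 0.06 (SE), adjusted p = 2.63e-18). All 3 were lower than Col in H89C4-7 and higher than Col in H89C11-7. The ankyrin repeat gene ACD6 also fell between the lines (log2 -0.80 ± 0.06 (SE), adjusted p = 7.12e-12). Unlike them, ACD6 was higher than Col in both lines, by log2 0.64 in H89C4-7 and 1.44 in H89C11-7. Low FMO1 and CBP60G were not particular to H89C4-7. FMO1 averaged 2.6 in NEET5-4 and 10.6 in NEET11-9, CBP60G 124 and 153, and WRKY70 243 and 219. In H89C23-10 and NEET10-10 the averages were 72.9 and 130.4 for FMO1, 1251 and 1544 for CBP60G, and 341 and 661 for WRKY70. ICS1 itself, named after its values were seen, differed by much less, with 453 ± 48.7 in H89C4-7 and 526 ± 10.4 in H89C11-7 (SD, n = 3 each; log2 -0.22 ± 0.08). The salicylic acid receptor genes NPR1 and NPR3 were higher. NPR1 had 1246, 1291 and 1288 in H89C4-7 and 864, 867 and 891 in H89C11-7 (log2 0.54 ± 0.05 (SE), adjusted p = 1.82e-09), and its paralog NPR3 had 1192, 1396 and 1196 in H89C4-7 and 710.4, 689 and 664 in H89C11-7 (log2 0.87 ± 0.08 (SE), adjusted p = 4.46e-10). DMR6, which hydroxylates salicylic acid, and SAG101, a partner of EDS1 in immune signalling, also rose, by log2 0.77 ± 0.07 and 0.74 ± 0.08. Against Col the list had 9 members higher and 10 lower in H89C4-7, and 24 higher and 0 lower in H89C11-7. Over all tested genes 33.6% were higher and 33.0% lower in H89C4-7, close to the list, and 19.8% and 17.9% in H89C11-7.

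Of 20 genes for immune receptors and receptor kinases tested, 7 rose and 8 fell, close to the shares over all tested genes (31.4% and 32.3%). Large differences were more frequent than over all genes. By 2-fold or more, 4 rose and 6 fell, against 5.59% and 7.31% of all tested genes, and the lowest member differed by log2 -3.72. The intracellular receptor gene SNC1 had 7424, 8315 and 7676 normalized counts in H89C4-7 and 3812, 3930 and 3789 in H89C11-7 (log2 1.02 ± 0.05 (SE), adjusted p = 5.77e-16), and the helper receptor gene ADR1 and the kinase gene BIK1 rose by log2 1.21 ± 0.08 and 1.16 ± 0.06. The wall-associated kinase gene WAK2 fell, with 236, 251 and 239 in H89C4-7 and 715, 651 and 655 in H89C11-7 (log2 -1.47 ± 0.06 (SE), adjusted p = 1.09e-16). In the jasmonate list, 6 of 26 rose and 9 fell, no more than about the 31.4% and 32.3% over all tested genes. The synthesis genes LOX2, AOS and AOC4 fell (log2 -0.84 ± 0.07, -0.63 ± 0.05 and -1.299 ± 0.07), while the repressor gene JAZ10 and the catabolic gene CYP94B3, both induced by jasmonate, rose by log2 2.00 ± 0.24 and 1.76 ± 0.20.

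Glucosinolates are sulfur-rich defence compounds of the cabbage family, made from methionine (aliphatic) or tryptophan (indolic). All 18 aliphatic genes tested fell in H89C4-7, against 32.3% of all tested genes, and the median of the list was log2 -0.99. MAM3, which elongates the methionine chain, had 21.8, 16.2 and 20.02 normalized counts in H89C4-7, against 717, 664 and 626 in H89C11-7 and 212, 266 and 218 in Col (log2 -5.05 ± 0.12 (SE), adjusted p = 4.15e-21). CYP83A1, the next P450 of the core pathway after CYP79F1 and CYP79F2, had 1141, 919 and 916 in H89C4-7 and 2822, 2703 and 2800 in H89C11-7 (log2 -1.49 ± 0.06 (SE), adjusted p = 2.97e-16). CYP79F2 and the chain-elongation dehydrogenase gene IMD1 fell (log2 -1.70 ± 0.10 and -1.42 ± 0.07). MAM3 was above Col in H89C11-7 and below it in H89C4-7, whereas CYP83A1 was at the Col level in H89C11-7 (log2 0.01) and below it in H89C4-7 (log2 -1.48). The pathway as a whole differed from Col by a median of log2 -1.32 in H89C4-7 and -0.19 in H89C11-7.

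Of 15 indolic genes tested, 12 fell and 1 rose (median log2 -0.64), against 32.3% and 31.4% of all tested genes. CYP81F2, which hydroxylates the indole ring, had 317, 302 and 299 normalized counts in H89C4-7 and 1387, 1513 and 1560 in H89C11-7 (log2 -2.28 ± 0.08 (SE), adjusted p = 1.88e-17), and MYB51, a regulator of the pathway, had 224, 264 and 273 in H89C4-7 and 768, 791 and 804 in H89C11-7 (log2 -1.64 ± 0.07 (SE), adjusted p = 8.6e-17). The exception was CYP81F4, another hydroxylase gene, which rose by log2 0.57 ± 0.08. In NEET11-9 and NEET5-4, CYP81F2 averaged 119 and 135, below H89C4-7, and MYB51 431 and 409, above it. Of 16 genes that respond to sulfur deficiency, 12 fell and 2 rose (median log2 -0.83), or 12 and 1 with edgeR on 19 libraries. APR1, the reductase of activated sulfate, had 434, 394 and 418 in H89C4-7 and 1326, 1313 and 1330 in H89C11-7 (log2 -1.67 ± 0.05 (SE), adjusted p = 3.27e-19). The root sulfate transporter gene SULTR1;2 and the vacuolar transporter gene SULTR4;2 fell (log2 -0.89 ± 0.07 and -0.95 ± 0.11).

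**Figure D3:**
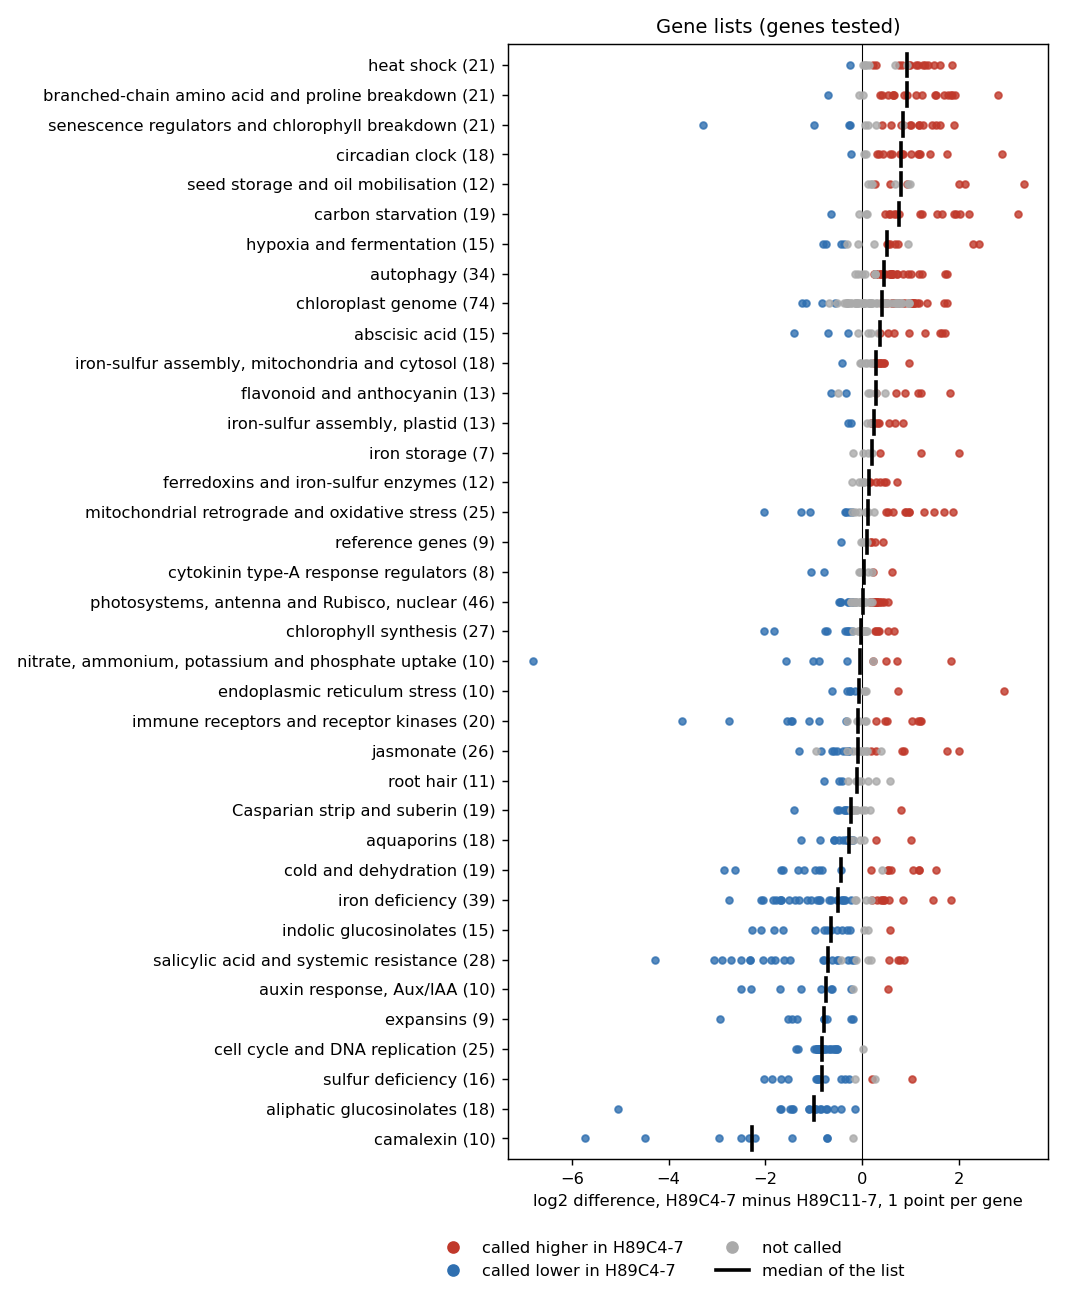
Log2 difference of H89C4-7 minus H89C11-7 for every tested member of the gene lists, 1 point per gene, coloured by its limma call, with the list median as a black bar and the number of genes tested in brackets. The medians run from -2.27 for camalexin at the bottom to 0.93 for heat shock and branched-chain amino acid breakdown (0.93) at the top.

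Iron deficiency genes, which a plant switches on when iron is short, were mostly lower in H89C4-7. Of 39 tested, 25 fell and 10 rose, with a median of log2 -0.49. Over all tested genes 32.3% fell and 31.4% rose, so the rises in this list did not exceed the overall share. The clade Ib transcription factors, which drive iron uptake together with FIT, fell together. BHLH38 had 65.3, 64.6 and 82.3 normalized counts in H89C4-7, against 301, 272 and 309 in H89C11-7 and 113, 138 and 129.9 in Col (log2 -2.05 ± 0.15 (SE), adjusted p = 9.37e-12). For BHLH101 the values were 195, 185 and 196 in H89C4-7, 650.3, 711 and 713 in H89C11-7 and 300.4, 342 and 284 in Col (log2 -1.84 ± 0.10 (SE), adjusted p = 2.8e-14). BHLH100 and BHLH39 fell (log2 -1.68 ± 0.11 and -1.51 ± 0.09). All 4 were higher than Col in H89C11-7, and 3 of them were lower than Col in H89C4-7, where BHLH100 (log2 -0.11 against Col) did not pass the test. Such levels were not particular to H89C4-7. In H89C23-10, NEET10-10, NEET11-9 and NEET5-4, BHLH101 averaged 185, 427, 183 and 108, and BHLH39 200, 172, 155 and 148. BHLH100 averaged 183, 342, 161 and 140 in the same order. H89C11-7, with averages of 691, 566 and 926 for BHLH101, BHLH39 and BHLH100, lay above every other group.

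FIT, the central regulator of iron uptake in roots, was higher in H89C4-7, with 231, 247 and 293 normalized counts in H89C4-7 and 146, 146 and 133 in H89C11-7 (log2 0.85 ± 0.12 (SE), adjusted p = 9.86e-07). Of the genes that FIT is known to activate, IRT1, FRO2 and F6'H1 were lower and ABCG37 was higher. IRT1, the root iron transporter, had 998, 870.4 and 969 in H89C4-7, against 1679, 1679 and 1955 in H89C11-7 (log2 -0.90 ± 0.14 (SE), adjusted p = 4.46e-06), and FRO2, the root ferric reductase, had 637, 705 and 656 in H89C4-7 and 1035, 954 and 1153 in H89C11-7 (log2 -0.65 ± 0.13 (SE), adjusted p = 7.7e-05). F6'H1, the enzyme that makes iron-mobilising coumarins, had 354, 315 and 333 in H89C4-7, against 2138, 2313 and 2362 in H89C11-7 and 1465, 792 and 1013 in Col (log2 -2.76 ± 0.12 (SE), adjusted p = 4.36e-16). F6'H1 averaged 292 in NEET11-9 and 244 in NEET5-4, below H89C4-7, and 874 in H89C23-10 and 1486 in NEET10-10. ABCG37, which exports coumarins from roots, had 4733, 4616 and 4486 in H89C4-7 and 3028, 3195 and 3196 in H89C11-7 (log2 0.55 ± 0.05 (SE), adjusted p = 9.83e-11). Of the root marker sums given above, that of the Casparian strip and suberin was lower in H89C4-7 without overlap and that of root hairs overlapped, and their part in these differences was not tested. AT1G47400, a member of the list that the reference leaves unnamed, fell (log2 -0.93 ± 0.17).

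BTS, an E3 ligase that restrains the iron deficiency response, had 7243, 7466 and 7150 normalized counts in H89C4-7 and 9384, 9336 and 9312 in H89C11-7 (log2 -0.36 ± 0.05 (SE), adjusted p = 1.93e-07), and both lines stood above the 4232, 4519 and 4310 of Col. PYE, a repressor induced by iron deficiency, had 828 ± 56.1 in H89C4-7 and 787 ± 17.7 in H89C11-7 (SD, n = 3 each) and did not pass the test (log2 0.07 ± 0.07 (SE), adjusted p = 0.365), and again both lines exceeded Col, by log2 0.97 in H89C4-7 and 0.90 in H89C11-7. NAS1, a nicotianamine synthase gene, fell (log2 -1.14 ± 0.08), whereas its paralog NAS3 rose by 1.83 ± 0.29. NRAMP3, which exports iron from the vacuole, had 847, 982 and 948 in H89C4-7 and 314, 375 and 320.5 in H89C11-7 (log2 1.46 ± 0.09 (SE), adjusted p = 6.9e-13). Among the clade IVc regulators, BHLH34, BHLH104 and ILR3 rose by log2 0.45, 0.42 and 0.19, all small differences. Against Col, the list had 14 members higher and 13 lower in H89C4-7, and 24 higher and 2 lower in H89C11-7. The H89C4-7 counts were close to the shares over all tested genes, 33.6% higher and 33.0% lower. In H89C11-7 those shares were 19.8% and 17.9%.

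Ferritin stores iron in plastids, and FER1 is its iron-responsive gene. FER1 had 7848, 8215 and 8251 normalized counts in H89C4-7, against 2072, 1981 and 2010 in H89C11-7 and 2283, 2083 and 2050 in Col (log2 2.00 ± 0.05 (SE), adjusted p = 1.26e-20). H89C11-7 overlapped Col, and H89C4-7 lay above both by about the same margin. FER2 and FER4 rose by log2 1.22 ± 0.27 and 0.38 ± 0.09, and the other 4 of the 7 iron storage genes tested were not called.

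**Figure D4:**
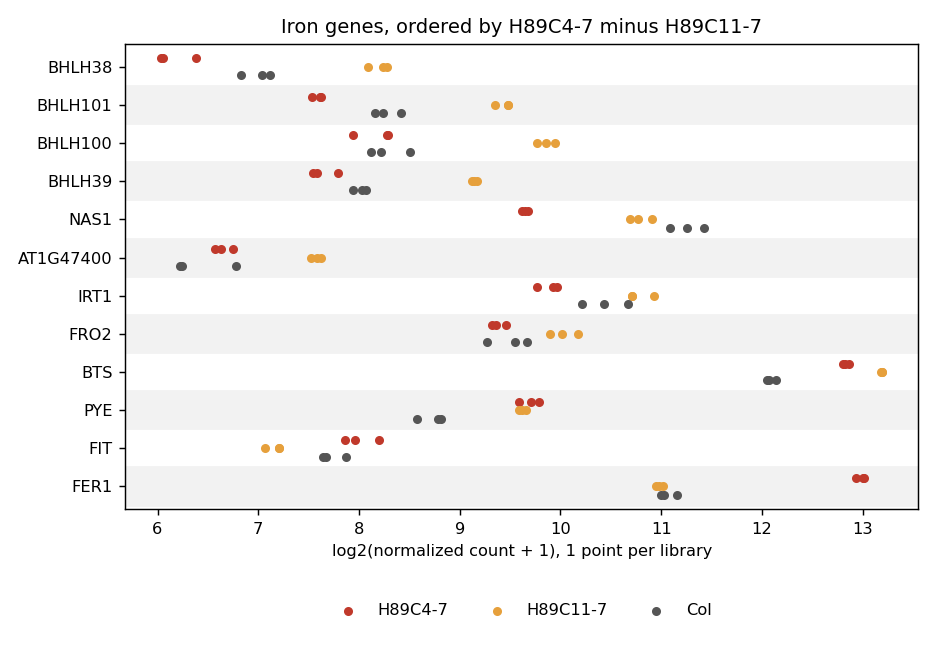
The 12 iron genes chosen by name, as log2(normalized count + 1), 1 point per library, ordered by the difference between H89C4-7 and H89C11-7, with H89C4-7 drawn above H89C11-7 and Col. The differences run from log2 -2.05 for BHLH38 to 2.00 for FER1, and the points of both lines overlap for PYE alone.

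Iron-sulfur cluster assembly was slightly higher in H89C4-7. Over all tested genes 31.4% rose and 32.3% fell. In the plastid SUF pathway 9 of 13 genes tested rose and 2 fell (median log2 0.24), and in the mitochondrial and cytosolic pathways 11 of 18 rose and 1 fell (median log2 0.29). With scaling by library total these counts became 7 and 2, and 10 and 2. SUFB, a scaffold subunit on which plastid clusters are built, had 5333, 5541 and 5368 normalized counts in H89C4-7, against 3030, 3045 and 2949 in H89C11-7 and 2642, 2920 and 2716 in Col (log2 0.85 ± 0.04 (SE), adjusted p = 6.2e-15). Its complex partner SUFD was slightly lower, with 1984, 1880 and 1929 in H89C4-7 and 2266, 2264 and 2286 in H89C11-7 (log2 -0.23 ± 0.06 (SE), adjusted p = 0.00211). DRE2, an electron carrier of the cytosolic pathway, had 858, 894 and 876 in H89C4-7 and 448, 432 and 462 in H89C11-7 (log2 0.97 ± 0.07 (SE), adjusted p = 2.02e-11). SUFE3, the plastid quinolinate synthase, MET18, which targets clusters to client proteins, and NBP35, a cytosolic scaffold, rose by log2 0.68 ± 0.05, 0.46 ± 0.06 and 0.41 ± 0.07. Among ferredoxins and enzymes that use such clusters, 7 of 12 rose and 0 fell, or 5 and 2 with scaling by library total. NIR1, the plastid nitrite reductase, had 10779, 10177 and 10482 in H89C4-7 and 6324, 6315 and 6385 in H89C11-7 (log2 0.72 ± 0.05 (SE), adjusted p = 3.52e-12), and GLU1, the ferredoxin-dependent glutamate synthase, rose by log2 0.46 ± 0.05.

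Genes that respond to sugar starvation rose broadly. Of 19 tested, 15 rose and 1 fell, against 31.4% and 32.3% of all genes, and the median difference was log2 0.77. SEN1, a marker of darkness and senescence, had 25953, 25414 and 27284 normalized counts in H89C4-7, against 6801, 6786 and 7059 in H89C11-7 and 3856, 4316 and 3893 in Col (log2 1.93 ± 0.05 (SE), adjusted p = 3.13e-20). TPS11, of the trehalose phosphate synthase family, had 11427, 13119 and 11884 in H89C4-7 and 3200, 3267 and 3259 in H89C11-7 (log2 1.90 ± 0.05 (SE), adjusted p = 6.64e-21). ASN1, the asparagine synthetase induced by darkness, had 12536, 12858 and 12459 in H89C4-7 and 4108, 4068 and 3866 in H89C11-7 (log2 1.65 ± 0.05 (SE), adjusted p = 2.1e-18), against 5599, 5303 and 4866 in Col. The exception was KMD1, a kelch-repeat F-box gene, which fell (log2 -0.65 ± 0.08).

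Plants without sugar can respire amino acids, and these genes moved with the starvation genes. In branched-chain amino acid and proline breakdown 18 of 21 tested rose and 1 fell (median log2 0.93), against 31.4% and 32.3% of all tested genes. BCAT2, the transaminase of the first step, had 6246, 7086 and 6773 normalized counts in H89C4-7, against 884, 1056 and 936 in H89C11-7 and 367, 359 and 353 in Col (log2 2.81 ± 0.08 (SE), adjusted p = 1.92e-19). IVD, the isovaleryl-CoA dehydrogenase, had 5700, 6133 and 5699 in H89C4-7 and 1639, 1786 and 1688 in H89C11-7 (log2 1.78 ± 0.04 (SE), adjusted p = 1.6e-20). MCCA, a subunit of methylcrotonyl-CoA carboxylase, and BCE1B1, of the branched-chain keto acid dehydrogenase, rose by log2 1.84 ± 0.05 and 1.86 ± 0.07. Against Col all 4 were called higher in both lines. BCAT2 was higher by log2 4.21 in H89C4-7 and 1.41 in H89C11-7. IVD, MCCA and BCE1B1 were higher by log2 1.94, 1.98 and 2.09 in H89C4-7, and by 0.17, 0.14 and 0.23 in H89C11-7. AT5G09300, a second gene for the keto acid dehydrogenase, fell, with 31.4, 48.5 and 37.8 in H89C4-7 and 61.1, 57.1 and 75.3 in H89C11-7 (log2 -0.71 ± 0.15 (SE), adjusted p = 0.000187).

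Autophagy, the recycling of cell contents in the vacuole, had 27 of 34 genes higher and 0 lower, against 31.4% and 32.3% of all tested genes. The median of the list was log2 0.46. ATG18F, which takes part in phagophore growth, had 2548, 3027 and 2659 normalized counts in H89C4-7 and 863, 871 and 783 in H89C11-7 (log2 1.71 ± 0.07 (SE), adjusted p = 1.48e-16). NBR1, a cargo receptor, had 13117, 14023 and 13331 in H89C4-7 and 6039, 5946 and 5917 in H89C11-7 (log2 1.18 ± 0.05 (SE), adjusted p = 9.51e-16). ATG8B, one of the ubiquitin-like proteins that coat the membrane, and ATG13A, a subunit of the initiating kinase complex, rose by log2 1.23 ± 0.07 and 0.94 ± 0.05. In H89C11-7 the autophagy genes stood slightly below Col, at a median of log2 -0.10, and in H89C4-7 above it, at 0.36.

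Senescence regulators and chlorophyll breakdown genes also rose, 13 of 21 against 4 that fell (median log2 0.85), where 31.4% of all tested genes rose and 32.3% fell. NYC1, which starts the breakdown of chlorophyll b, had 8656, 9370 and 8946 normalized counts in H89C4-7 and 3339, 3332 and 3203 in H89C11-7 (log2 1.45 ± 0.05 (SE), adjusted p = 9.25e-19), and SAG21, a stress and senescence gene, had 4514, 4994 and 4598 in H89C4-7 and 1167, 1296 and 1301 in H89C11-7 (log2 1.91 ± 0.10 (SE), adjusted p = 1.1e-14). NAC042, also called JUNGBRUNNEN1 and known to delay senescence, went against the list, with 48.3, 38.4 and 53.4 in H89C4-7, against 445, 476 and 462 in H89C11-7 and 145, 146 and 164 in Col (log2 -3.29 ± 0.14 (SE), adjusted p = 1.91e-16). NAC029, also called NAP, a promoter of leaf senescence, fell (log2 -0.997 ± 0.11).

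Cell division genes were lower in H89C4-7 almost without exception. Of 25 tested, 24 fell and 0 rose, against 32.3% and 31.4% of all tested genes. The median was log2 -0.83, and the sole gene not called was the kinase gene AUR2. The falls covered mitotic cyclins and kinases as well as the replication machinery. RNR1, the large subunit of ribonucleotide reductase, had 841, 852 and 913 normalized counts in H89C4-7, against 1697, 1673 and 1616 in H89C11-7 and 1100, 1187 and 1214 in Col (log2 -0.94 ± 0.05 (SE), adjusted p = 7.21e-14). TSO2, the small subunit, had 923, 964 and 1026 in H89C4-7 and 1733, 1788 and 1908 in H89C11-7 (log2 -0.90 ± 0.06 (SE), adjusted p = 3.44e-12). CYCD3;1, a cyclin of cell cycle entry, had 361, 361 and 407 in H89C4-7, against 701, 746 and 724 in H89C11-7 and 718, 859 and 826 in Col (log2 -0.94 ± 0.07 (SE), adjusted p = 9.88e-12), and the replicative helicase gene MCM7 fell (log2 -0.77 ± 0.06). The reductase subunits were above Col in H89C11-7, by log2 0.51 and 0.61, while most of the list was near Col there, at a median of -0.05, against -0.88 in H89C4-7.

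The 250 bases upstream of each listed gene's annotated start were searched on both strands for the letters of 2 motifs known from plant cell cycle promoters. These and the other motif shares given here describe the lists and do not depend on the values of either line. The core of the mitosis-specific activator element, AACGG, stood upstream of 44% of the 25 listed genes and of 20.6% of all 27443 protein-coding genes. The E2F element, searched as TTTCCCGC, TTTCGCGC, TTTGCCGC or TTTGGCGC on both strands, stood upstream of 24% of the list and 1.41% of all. For each motif, the called list member with the smallest adjusted p that held it and had a window free of other genes is printed, with matches on either strand in capitals. The first is the mitotic cyclin gene CYCB1;2 (chr5:1861704-1861953, minus strand of TAIR10.1, 5′ to 3′ toward the gene), whose matches begin 143, 69, 43 and 11 bases before the start. The second is the helicase gene MCM5 (chr2:3527501-3527750, minus strand), with 1 match that begins 19 bases before it. A match is only a stretch of letters and is no evidence of binding. In the same way TTGAC was searched for 2 further lists. It stood upstream of 70% of 10 camalexin genes and 56.25% of 32 salicylic acid genes, against 44.9% of all protein-coding genes.
CYCB1;2 upstream: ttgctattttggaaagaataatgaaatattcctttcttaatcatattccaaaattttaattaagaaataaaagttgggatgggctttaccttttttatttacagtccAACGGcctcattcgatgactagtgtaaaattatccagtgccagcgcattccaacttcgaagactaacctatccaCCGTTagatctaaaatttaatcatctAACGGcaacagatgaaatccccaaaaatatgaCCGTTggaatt
MCM5 upstream: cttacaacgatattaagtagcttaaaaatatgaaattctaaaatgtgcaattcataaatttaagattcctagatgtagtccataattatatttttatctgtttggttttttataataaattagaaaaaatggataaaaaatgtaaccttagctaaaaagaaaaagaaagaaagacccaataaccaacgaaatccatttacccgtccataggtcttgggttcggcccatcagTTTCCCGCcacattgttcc

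CYCB1;2 averaged 171 ± 7.32 in H89C4-7 and 322 ± 15.66 in H89C11-7 (normalized counts, SD, n = 3 each; log2 -0.91 ± 0.08 (SE), adjusted p = 8.31e-10), and MCM5 averaged 282 ± 30.5 in H89C4-7 and 478 ± 37.1 in H89C11-7 (log2 -0.76 ± 0.08 (SE), adjusted p = 5.87e-09). For both genes the libraries of the lines did not overlap.

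Genes of cell expansion fell as well. All 9 expansins tested, which loosen cell walls, were lower in H89C4-7 (median log2 -0.79), where 32.3% of all tested genes fell and 31.4% rose. EXPA8 had 349, 301 and 277 normalized counts in H89C4-7, against 2362, 2304 and 2400 in H89C11-7 and 4945, 5799 and 5810 in Col (log2 -2.93 ± 0.07 (SE), adjusted p = 1.6e-20), so that H89C11-7 lay between the other groups. EXPA11 and EXPA3 fell (log2 -1.54 ± 0.08 and -1.44 ± 0.06). Of 10 Aux/IAA genes tested, early auxin-response repressors, 8 fell and 1 rose (median log2 -0.75). IAA29 had 33.8, 21.2 and 34.5 in H89C4-7, 174, 150.2 and 191 in H89C11-7 and 465, 441 and 412 in Col (log2 -2.51 ± 0.14 (SE), adjusted p = 5.55e-14), again with H89C11-7 in between, and IAA2 was the member that rose, by log2 0.53 ± 0.07. Aquaporins, the water channels, had 12 of 18 lower and 2 higher, at a median of log2 -0.27. PIP2;8 fell (log2 -1.27 ± 0.10). TIP2;3, a vacuolar channel of roots, had 361, 281 and 395 in H89C4-7 and 162, 222 and 137 in H89C11-7 (log2 1.00 ± 0.17 (SE), adjusted p = 1.31e-05), while both lines were below the 1554, 1022 and 1177 of Col.

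Heat shock genes were higher in H89C4-7. Of 21 tested, 14 rose and 1 fell, at a median of log2 0.93, against 31.4% and 32.3% of all tested genes. Another 5 of the 26 list members were too low to be tested. HSP90.1, the heat-inducible cytosolic chaperone, had 3858, 3824 and 3929 normalized counts in H89C4-7, against 1207, 1345 and 1284 in H89C11-7 and 753, 776 and 861 in Col (log2 1.60 ± 0.06 (SE), adjusted p = 4.95e-17). HSP101, which pulls apart protein aggregates, had 1327, 1198 and 1227 in H89C4-7 and 512, 519 and 544 in H89C11-7 (log2 1.25 ± 0.08 (SE), adjusted p = 7.29e-13). HSP70-4 and the co-activator gene MBF1C rose by log2 0.97 ± 0.06 and 1.48 ± 0.13. HSFB1, a repressive heat shock factor, fell (log2 -0.24 ± 0.05). Heat shock elements, searched on both strands as 3 alternating units of the letters GAA and TTC (starting with either) with any 2 bases between units, stood in the 250 bases upstream of 19.2% of the 26 listed genes and of 0.386% of all protein-coding genes. HSFA7A, a heat-induced heat shock factor gene, is the called member with the smallest adjusted p that holds one and a window free of other genes, and is printed with its 2 matches in capitals, which begin 192 and 142 bases before the start (chr3:19264891-19265140, plus strand of TAIR10.1).
HSFA7A upstream: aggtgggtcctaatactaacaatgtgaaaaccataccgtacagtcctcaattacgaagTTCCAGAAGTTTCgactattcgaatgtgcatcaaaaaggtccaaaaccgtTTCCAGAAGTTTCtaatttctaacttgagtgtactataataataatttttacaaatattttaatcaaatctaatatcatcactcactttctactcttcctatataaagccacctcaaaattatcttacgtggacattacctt

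HSFA7A averaged 811 ± 55.4 in H89C4-7 and 661 ± 43.3 in H89C11-7 (normalized counts, SD, n = 3 each; log2 0.29 ± 0.09 (SE), adjusted p = 0.00818), a far smaller rise than that of HSP90.1.

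Circadian clock genes were mostly higher in H89C4-7, 15 of 18 tested, with 1 lower (median log2 0.81), against 31.4% and 32.3% of all tested genes. LNK2, a co-activator of the morning loop, had 13020, 13182 and 13537 normalized counts in H89C4-7, against 4051, 3900 and 3829 in H89C11-7 and 8506, 9676 and 8909 in Col (log2 1.75 ± 0.05 (SE), adjusted p = 4.87e-19). CCA1, a morning repressor, had 4104, 4010 and 4100 in H89C4-7 and 1812, 1804 and 1761 in H89C11-7 (log2 1.18 ± 0.05 (SE), adjusted p = 3.65e-17), and PRR7, a pseudo-response regulator of the day, had 4594, 4835 and 4750 in H89C4-7 and 1867, 1823 and 1656 in H89C11-7 (log2 1.41 ± 0.05 (SE), adjusted p = 2.66e-17). LNK2, CCA1, PRR7 and RVE4 were all higher than Col in H89C4-7 and lower than Col in H89C11-7. ELF4, a member of the evening complex, was the gene that fell (log2 -0.22 ± 0.07), and PRR3 and FKF1 were not called. The evening element AAAATATCT, searched in the same way, stood upstream of 22.2% of the 18 clock genes and 2.36% of all. The labels give no time of harvest for either line, so a difference in harvest time and a difference in the clock cannot be told apart.

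Nuclear genes of the photosystems, antenna and Rubisco differed little between the lines. Of 46 tested, 16 rose and 9 fell, against 31.4% and 32.3% of all tested genes. The median was log2 0.02, and no member reached a 2-fold difference. With scaling by library total 11 rose and 17 fell, so the balance has no stable direction. Their summed normalized count was 1702819 to 1873030 in H89C4-7, 1616044 to 1729439 in H89C11-7 and 2206552 to 2411519 in Col. Both lines were thus below Col, by a median of log2 -0.44 in H89C4-7 and -0.42 in H89C11-7. Reads of the LHCB1 and RBCS copies, which are near-identical, may have been split between them. Rubisco activase, RCA, had 158335, 144053 and 144804 in H89C4-7 and 112024, 105229 and 110065 in H89C11-7 (log2 0.45 ± 0.07 (SE), adjusted p = 1.07e-05).

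Of 27 chlorophyll synthesis genes tested, 6 rose and 9 fell, no more than about the shares over all genes, or 6 and 12 with scaling by library total. HEMA1, the glutamyl-tRNA reductase at the entry of the pathway, had 10718, 10198 and 10199 normalized counts in H89C4-7 and 6613, 6600 and 6434 in H89C11-7 (log2 0.66 ± 0.04 (SE), adjusted p = 5.57e-13). PORB, the light-dependent reductase near its end, had 4416, 4064 and 4322 in H89C4-7, against 15355, 14446 and 15255 in H89C11-7 and 14817, 14168 and 14467 in Col (log2 -1.82 ± 0.04 (SE), adjusted p = 6.64e-21), and its paralog PORC fell (log2 -0.76 ± 0.05). Of the 133 genes of the chloroplast genome, 74 had enough reads to be tested, and 22 of them rose while 4 fell. The share that rose was close to that of all tested genes (31.4%), and the share that fell was well below theirs (32.3%). The median was log2 0.41, and 11 rose by 2-fold or more, as 5.59% of all tested genes did. With edgeR on 19 libraries 16 rose and 3 fell, and with DESeq2 13 and 2. Their summed count was 9181 to 11131 in H89C4-7, 6815 to 7472 in H89C11-7 and 4730 to 5813 in Col, which is at most 0.0515% of a library, so these values rest on the small share of plastid transcript that the libraries captured. Such a sum can vary widely within a line, as the H89C23-10 replicates had 7627, 16204 and 6502.

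**Figure D5:**
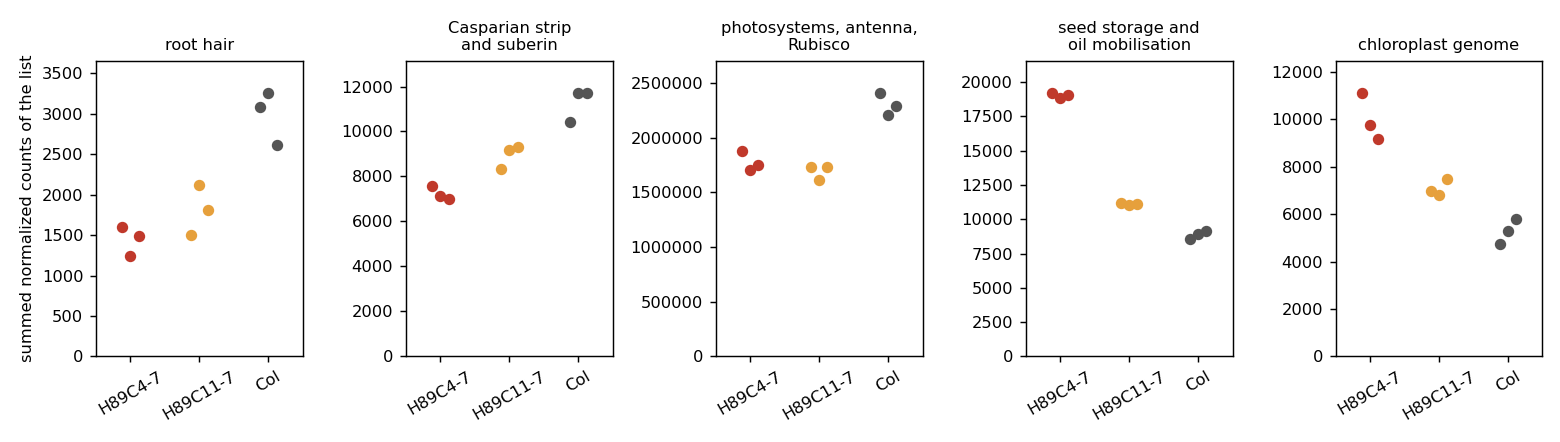
Summed normalized counts of 5 marker lists in each library of H89C4-7, H89C11-7 and Col, 1 point per library, each axis starting at 0. The seed and oil list and the chloroplast genome are highest in H89C4-7, and both root lists and the photosystem list are highest in Col.

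The lists that follow are short, and their counts are to be read against the 31.4% of all tested genes that rose and the 32.3% that fell. Of 19 cold and dehydration genes tested, 10 fell and 8 rose. COR15A, a chloroplast protein of freezing tolerance, had 68.9, 57.6 and 57.9 normalized counts in H89C4-7, against 507, 430.5 and 422 in H89C11-7 and 1361, 1189 and 1233 in Col (log2 -2.86 ± 0.08 (SE), adjusted p = 3.13e-20), and COR15B, KIN2 and RD29A fell (log2 -2.63 ± 0.08, -1.64 ± 0.05 and -1.67 ± 0.05). The galactinol synthase gene GOLS1, the NAC factor gene RD26 and the dehydrin gene RAB18 rose by log2 1.53 ± 0.09, 1.04 ± 0.07 and 0.60 ± 0.08. NCED3, the rate-limiting enzyme of abscisic acid synthesis, had 116, 118 and 90.11 in H89C4-7, against 291, 256 and 318 in H89C11-7 and 494, 498 and 451 in Col (log2 -1.41 ± 0.10 (SE), adjusted p = 6.29e-12). Downstream, the phosphatase gene HAB1 and the transcription factor gene ABF4 rose by log2 1.301 ± 0.05 and 0.96 ± 0.05, and 8 of 15 abscisic acid genes tested rose while 3 fell.

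In hypoxia and fermentation 7 of 15 genes tested rose and 4 fell, and 2 fell with edgeR and with DESeq2 on 19 libraries. ADH1, alcohol dehydrogenase, had 348, 361 and 298 normalized counts in H89C4-7, against 74.8, 77.1 and 41.7 in H89C11-7 and 171, 153 and 125 in Col (log2 2.41 ± 0.20 (SE), adjusted p = 6.84e-11), which placed the lines on opposite sides of Col. PCO1, a sensor enzyme of the oxygen response, fell (log2 -0.81 ± 0.14). Catalases diverged: CAT3 had 21528, 20183 and 20368 in H89C4-7 and 43738, 43133 and 44428 in H89C11-7 (log2 -1.08 ± 0.05 (SE), adjusted p = 2.03e-16), while CAT1 had 2983, 3284 and 3007 in H89C4-7 and 1335, 1233 and 1261 in H89C11-7 (log2 1.27 ± 0.07 (SE), adjusted p = 1.11e-14). GSTU24 and ZAT12, which respond to oxidative stress, rose by log2 1.89 ± 0.08 and 1.48 ± 0.10, and 11 of 25 genes of that list rose while 7 fell. In the endoplasmic reticulum stress list BIP3, a stress-induced chaperone, had 118, 71.7 and 108 in H89C4-7 and 8.43, 24 and 8.14 in H89C11-7 (log2 2.93 ± 0.38 (SE), adjusted p = 2.76e-07), although only 2 of 10 members rose and 5 fell.

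Of 13 flavonoid genes tested, 6 rose and 2 fell. MYB12, the regulator of flavonol synthesis, had 198, 183 and 205 normalized counts in H89C4-7 and 61.1, 43 and 62.1 in H89C11-7 (log2 1.82 ± 0.17 (SE), adjusted p = 9.84e-10), and chalcone synthase, CHS, had 3146, 2921 and 3094 in H89C4-7 and 1421, 1223 and 1458 in H89C11-7 (log2 1.16 ± 0.07 (SE), adjusted p = 5.07e-13). Of 10 genes for the uptake of nitrate, ammonium, potassium and phosphate and for nitrate reduction, 4 rose and 5 fell. NIA1, nitrate reductase, had 36118, 34941 and 34028 in H89C4-7 and 9687, 9720 and 9957 in H89C11-7 (log2 1.84 ± 0.05 (SE), adjusted p = 3.13e-20), whereas the transporter and sensor NRT1.1 had 2007, 1876 and 1877 in H89C4-7 and 3826, 3879 and 3996 in H89C11-7 (log2 -1.02 ± 0.06 (SE), adjusted p = 1.79e-13). Of 8 type-A response regulators of cytokinin, 2 rose and 2 fell, with scaling by library total 1 rose and 3 fell, and with edgeR on 19 libraries 2 and 1. ARR6 had the smallest adjusted p among them (log2 0.61 ± 0.11).

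Seed storage and oil mobilisation genes were higher in H89C4-7, 6 of 12 tested, with 0 lower. ICL, the isocitrate lyase of the glyoxylate cycle, had 7661, 7684 and 7731 normalized counts in H89C4-7, against 1656, 2217 and 1948 in H89C11-7 and 1112, 1201 and 1238 in Col (log2 2.00 ± 0.11 (SE), adjusted p = 2.25e-14), and SESA3, a seed albumin gene, had 78.6, 45.4 and 107 in H89C4-7 and 5.27, 5.01 and 9.16 in H89C11-7 (log2 3.34 ± 0.58 (SE), adjusted p = 1.85e-05). The list's summed count was 18815 to 19246 in H89C4-7, 11047 to 11172 in H89C11-7 and 8593 to 9152 in Col. ICL alone made up most of the difference in this sum between the lines, and the seed albumin gene SESA3 very little of it. Of 9 genes often used as references, 4 rose and 1 fell, with a median of log2 0.09. With scaling by library total 2 rose and 1 fell, at a median of -0.01. ACT2 had 23348, 22270 and 22331 in H89C4-7 and 16894, 16225 and 17119 in H89C11-7 (log2 0.44 ± 0.04 (SE), adjusted p = 3.11e-09), and ACT7 fell (log2 -0.44 ± 0.09).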

How the data were processed

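RNA from complete seedlings was sequenced from TruSeq libraries, per the labels' protocols. FastQC 0.11.7, STAR 2.4.0.1, DESeq2 1.20.0 and the build TAIR10 are named in the submitters' processing notes. How reads were assigned to genes, with or without strand, is not given there, so antisense, overlapping and near-identical genes may share reads. The deposited table holds a normalized signal for 32833 genes in 21 libraries, which per the values are gene counts over a size factor applied by the authors. The step between low values gave whole reads within a tolerance of 0.001 in every library. For 2 libraries, replicate 2 of each line, that step is near 1, at 1.01 in H89C4-7 and 1.001 in H89C11-7. A rule on steps near 1 left them out of the count tests, although their reads could be recovered. Count tests thus used the other 19 libraries, 2 per H89C line compared.

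Values were analysed as log2(value + 1). Testing was limited to the 20699 genes that reached 10 in 3 or more libraries. Genes were fitted by limma-trend (limma 3.58.1, R 4.3.3) with 1 mean per group, all 21 libraries and 14 residual degrees of freedom, and Benjamini-Hochberg adjustment over all tested genes. The replicate numbers do not pair the samples, so no block was used. A call is an adjusted p under 0.05. The fit was tested on simulated data with 200 changed genes. Alternatives were other pseudocounts and filters, other scalings, edgeR 4.0.16, DESeq2 1.42.0, a replicate block and leaving out libraries. Symbols and sequences come from RefSeq's TAIR10.1 annotation, which held 32548 of the gene IDs.

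The comparison, its lists of genes (37, with 697 named entries besides the chloroplast genome) and the rules for named genes were chosen with earlier results of these data known. Named are AtNEET, the 12 largest rises and 12 largest falls that were called, averaged 50 or more in the higher line and had no overlap between the lines' libraries, up to 4 called members per list with the smallest adjusted p, called members that go against their list's majority, and 12 iron genes. Genes named for other reasons are those with printed upstream sequence, not-called members of lists, ICS1, and the genes of families and chromosome runs in the closing section, all named after their values were seen.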

Additional observations from a re-analysis of the deposited data

Results flagged for a closer look

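Of 253 named genes, 17 were called on opposite sides of Col in H89C4-7 and H89C11-7, with a tested difference between the lines of at least log2 2. All 17 stood on opposite sides of Col also without Col replicate 1. Both comparisons share the Col libraries, and the difference itself was tested between H89C4-7 and H89C11-7, where Col enters only through the shared estimate of spread. All but 1 of the 17 were lower than Col in H89C4-7 and higher than Col in H89C11-7. Many of the 17 were named as largest falls, so this direction follows in part from the naming rule. Over all tested genes, 66.6% were called against Col in H89C4-7 and 37.7% in H89C11-7. The share of all tested genes that meets the same rule was not counted, so the 17 are listed as a description and not as an excess. Low values were in many cases not particular to H89C4-7. CYP71A12, GSTF6, CYP81F2, FMO1, NAC042, F6'H1, AT3G03670, AT5G38910 and AT2G29250 averaged lower still in both NEET5-4 and NEET11-9. GSTF14, MAM3, PCC1 and WRKY70 averaged higher in both than in H89C4-7. CYP71A13 and AT2G23270, near the floor in these lines, averaged lower in NEET5-4 and higher in NEET11-9. The camalexin genes CYP71A13, CYP71A12 and GSTF6 differed between the lines by log2 -5.73, -4.48 and -2.33, and the indolic glucosinolate gene CYP81F2 by -2.28. The resistance genes FMO1, WRKY70 and PCC1 differed by -4.27, -2.32 and -4.58. The iron deficiency genes F6'H1 and BHLH38 differed by -2.76 and -2.05, and the chain-elongation gene MAM3 by -5.05. The senescence regulator gene NAC042 differed by -3.29 and the glutathione S-transferase gene GSTF14 by -6.24. The peroxidase gene AT3G03670, the cupin gene AT5G38910, the lectin kinase gene AT2G29250 and the uncharacterized gene AT2G23270 differed by -4.51, -4.34, -4.28 and -4.65. ADH1 was the exception, higher than Col in H89C4-7 and lower than Col in H89C11-7, with a difference of 2.41.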

How the results depend on the processing

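The counts of 6498 genes higher and 6676 lower stayed within 1.5 times of those values under every alternative run other than a limit on the size of the difference. Requiring a difference of at least 2-fold left 1157 higher and 1514 lower. Leaving out 1 library of either line at a time gave 6000 to 6134 higher and 6116 to 6278 lower. TMM scaling gave 6536 and 6647, edgeR on 19 libraries 5553 and 5800, DESeq2 on them 5366 and 5326, and limma on the same 19 libraries, added after seeing the data, 5665 and 5861. Same-numbered replicates did not deviate together (correlations of -0.00193, 0.00546 and -0.0302), and with the replicate block 6516 genes were higher and 6669 lower. Each line's counts against Col also stayed within 1.5 times when any library of that line or of Col was left out. A gene that was not called was given no direction. Over the named genes and alternatives, no called difference reversed, 5194 tests stayed called or not called as before, and 113 lost the call. CBF3, COR47, ARR15 and APR2 lost it most often. Of the counts of list members, 69 moved by more than 1.5 times, and 1485 did not. Depth limits genes near the filter, whose log2 differences shrink toward 0 with the added 1.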

Other observations

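Families grouped by the product names of the annotation were chosen after their values were seen. Of 346 genes whose product names a ribosomal protein of any compartment, 231 were lower and 22 higher in H89C4-7, at a median of log2 -0.36. Against Col the median was log2 -0.10 in H89C4-7 and 0.26 in H89C11-7. Lipid-transfer family genes had 39 of 53 lower and 2 higher, arabinogalactan protein genes 29 of 41 lower and 3 higher, and class III peroxidase genes 35 of 58 lower and 3 higher. SAUR genes, induced early by auxin, had 26 of 56 lower and 8 higher. NAC transcription factor genes leaned the other way, with 31 of 72 higher and 11 lower. Over all genes, 31.4% were higher and 32.3% lower.

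Large differences also lay side by side on the chromosomes. There were 5 runs of at least 4 neighbouring tested genes that were all called and differed by at least log2 1.5 in the same direction. On chromosome 2, 5 glycosyltransferase genes from UGT73C1 (start 15410376) to DOGT1 (end 15425129) rose, UGT73C1 averaging 851 normalized counts in H89C4-7 and 69.6 in H89C11-7 (log2 3.59 ± 0.29), AT2G36780 1853 in H89C4-7 and 149.9 in H89C11-7 (log2 3.62 ± 0.21), and DOGT1, which glucosylates the fungal toxin deoxynivalenol, 3511 in H89C4-7 and 913 in H89C11-7 (log2 1.94 ± 0.08). Also on chromosome 2, 4 chitinase family genes from AT2G43570 (start 18076166) to AT2G43620 (end 18095093) fell, AT2G43590 averaging 543 in H89C4-7 and 7208 in H89C11-7 (log2 -3.73 ± 0.07). SAUR26 to SAUR29 on chromosome 3 fell (log2 -1.54 to -2.59). On chromosome 4, a run of 6 genes from UNE15 to AT4G13577 fell, AT4G13575 averaging 114 in H89C4-7 and 469 in H89C11-7 (log2 -2.03 ± 0.10), and a run of 6 from AT4G22475 to AT4G22517, most of them lipid-transfer family genes, fell (log2 -1.69 to -2.74). Neighbouring copies of 1 family may share reads, so these genes are not independent measurements. AT4G22485 (11844506-11846476) lies wholly within the span of AT4G22475 (11844242-11846630). Some run members were near the floor in H89C4-7, such as SAUR28 at 1.88, AT4G13577 at 4.13 and AT4G22505 at 5.49.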
